A study of Mus musculus with 5 samples.

Results

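The transcripts of glucose metabolism were followed in single plasma cells as a set of 33 genes out of the 33456 in the count tables. The genes were taken by symbol: 2 glucose transporters, 11 genes of the hexokinase to aldolase steps, 9 of the triose phosphate to pyruvate steps, 5 that set the fate of pyruvate and lactate, 4 of the pentose phosphate pathway, and the transcription factors Hif1a and Myc. Of the 33 genes, 30 had at least 1 UMI (unique molecular identifier, a tag that marks 1 captured RNA molecule) in each splenic library and 31 in the bone marrow library.

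Plasma cells are the antibody-secreting cells of the B lineage. The cells came from unimmunized, untreated male C57Bl6/N mice aged 8 to 12 weeks, with no engineered allele named, and material of 3 mice was pooled for each population, so a library carries no spread between animals. All cells were sorted in 2 rounds as CD138-high, Ly6g- and CD11c-, then gated on B220, the long CD45 isoform that B cells carry, and on 2NBDG, a glucose analog that fluoresces inside cells that have imported it. Spleen gave 4 populations, 1 for each combination of the B220 gate with the 2NBDG gate, and bone marrow gave the fifth, B220-2NBDG+. Each population was sequenced as 1 library with the 10x Genomics 3' version 2 chemistry. With 1 library a population there is no error term between libraries, so ratios between them carry counting intervals and no test.

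Glycolysis splits glucose to pyruvate. Hexokinases trap the sugar, phosphofructokinases commit it, and the lower steps yield ATP and NADH. Lactate dehydrogenase returns NAD by turning pyruvate into lactate, pyruvate dehydrogenase kinase holds pyruvate back from the mitochondrion, and the pentose phosphate pathway diverts glucose 6-phosphate to NADPH and ribose. HIF1 and MYC are known activators of many of these genes, HIF1 through sites with the core ACGTG or GCGTG and MYC through the E-box CACGTG. Plasma cells use glucose both for energy and for the sugars attached to antibodies.

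Promoter windows of 250 bases, ending at the base before the RefSeq start on GRCm38.p6, were found for 31 of the 33 genes. Those of 4 genes are printed 5′ to 3′ on the strand of the gene because the results turn on them: Ldha, Pgk1 and Eno1 rose in cycling cells, and Pgam2 differed between isotypes. Capitals mark ACGTG or GCGTG read on either strand.
Ldha promoter, chr7:46845554-46845803, plus strand: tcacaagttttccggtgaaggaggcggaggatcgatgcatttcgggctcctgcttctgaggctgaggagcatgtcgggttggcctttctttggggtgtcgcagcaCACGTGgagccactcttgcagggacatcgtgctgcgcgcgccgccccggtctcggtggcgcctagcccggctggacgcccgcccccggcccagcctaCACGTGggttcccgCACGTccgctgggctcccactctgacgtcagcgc
Pgk1 promoter, chrX:106186850-106187099, plus strand: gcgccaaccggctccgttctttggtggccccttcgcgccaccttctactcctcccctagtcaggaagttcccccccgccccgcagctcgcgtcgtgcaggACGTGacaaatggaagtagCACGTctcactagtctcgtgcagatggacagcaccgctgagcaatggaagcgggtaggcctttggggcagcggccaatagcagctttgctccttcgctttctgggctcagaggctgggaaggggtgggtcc
Eno1 promoter, chr4:150236458-150236707, plus strand: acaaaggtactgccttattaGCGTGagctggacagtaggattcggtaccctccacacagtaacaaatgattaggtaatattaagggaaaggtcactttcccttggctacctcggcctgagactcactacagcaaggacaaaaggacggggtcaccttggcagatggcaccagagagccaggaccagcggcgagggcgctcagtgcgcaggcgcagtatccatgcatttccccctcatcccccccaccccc
Pgam2 promoter, chr11:5803797-5804046, minus strand: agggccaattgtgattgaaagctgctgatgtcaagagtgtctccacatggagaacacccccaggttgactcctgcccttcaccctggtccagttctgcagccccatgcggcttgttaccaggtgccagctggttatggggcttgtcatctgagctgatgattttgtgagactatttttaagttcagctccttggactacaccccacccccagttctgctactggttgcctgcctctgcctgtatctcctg
The Ldha window held 5 ACGTG matches, 4 of them the 2 strands of 2 CACGTG palindromes, the Pgk1 window held 2 ACGTG matches, the Eno1 window held 1 GCGTG match, and the Pgam2 window held neither. ACGTG or GCGTG stood in 24 of the 31 windows (77.4%) against 38.6% of 27025 windows of the same length, 1 for each gene. Counted whether or not the other core was present, ACGTG was in 11 (35.5%, against 16.5%) and GCGTG in 16 (51.6%, against 28.3%). CACGTG, which contains ACGTG on both strands, was in 4 (12.9%, against 6.01%). The median G+C content of the windows was 59.2% for these genes and 52.0% for all, and both cores hold CG, so base composition moves with these shares. The match is a description of the letters in these windows, with no binding data.

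Each library held 892 to 1290 cells after 25 of the 5476 deposited barcodes with 3 or more UMIs of T cell genes were left out, and 3939335 to 6624765 UMIs outside the immunoglobulin genes. Values are UMIs per total of these non-immunoglobulin UMIs, on the usual CPM scale, since immunoglobulin RNA took 47.0% to 64.8% of all UMIs and differed between libraries. Plasma cell markers were present in every library, with a summed level of 115462 to 305896 CPM that was lowest in B220+2NBDG- cells. The markers of other cells were at 2.54 to 5.74 CPM for T cells (4 of 5 markers with a UMI, Trbc1 at 0), 0.365 to 3.37 CPM for neutrophils, 0.453 to 2.84 CPM for erythroid cells, 21.1 to 38.7 CPM for macrophages (Adgre1, Fcgr1 and Cd14 at 0) and 568 to 1156 CPM for B cells. At most 4 barcodes were shared by any pair of libraries. Cells with 3 or more UMIs of Mki67, Top2a, Birc5, Cdk1 and Ccnb1, called cycling below, made up 13.9% of the B220+2NBDG- library (168 of 1207, with an exact 95% interval of 12.0 to 16.0). The shares were 1.24% in B220-2NBDG- (16 of 1290), 1.42% in B220+2NBDG+ (16 of 1126), 0.112% in splenic B220-2NBDG+ (1 of 892), and 0 of 936 cells in bone marrow, which allows a share of up to 0.321% by the limit of 3 counts and 0.393% by the exact 95% interval. Cycling cells were deeper, with a median of 10083 non-immunoglobulin UMIs against 4203 in the other B220+2NBDG- cells, 7559.5 against 3675 in B220-2NBDG- cells and 7553.5 against 4709.5 in B220+2NBDG+ cells. All intervals cover counting error only.

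The transcripts of uptake and trapping were scarce and those of the later steps were abundant enough to compare. Values always follow the same order of libraries: first B220+2NBDG-, then B220-2NBDG-, next B220+2NBDG+, after it splenic B220-2NBDG+, and last bone marrow. Slc2a1, the GLUT1 transporter, had 13.9, 8.06, 8.93, 7.62 and 7.46 CPM, on 30 to 92 UMIs. The highest value was in cells sorted as low in 2NBDG. Slc2a3, the GLUT3 transporter, stayed at 0.786 to 1.64 CPM. Hexokinase Hk1 had 10.8 to 18.2 CPM, and Hk2 had 15.7, 4.13, 8.02, 8.63 and 4.97 CPM. Hk3 had no UMI in any library. For none of the transporters or hexokinases did a library reach 25 CPM, the minimum set for calling a ratio.

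Among the upper steps, Aldoa, the main aldolase, was the steadiest abundant gene at 340, 361, 322, 349 and 395 CPM, and its highest library exceeded its lowest 1.23-fold. Gpi1, the glucose phosphate isomerase, had 100, 74.3, 67.3, 67.0 and 62.3 CPM. Of the phosphofructokinases, Pfkl had 30.5, 30.3, 27.7, 29.2 and 22.5 CPM, and Pfkp had 72.0, 61.3, 62.9, 60.7 and 28.2 CPM. Pfkp was thus similar in the 4 splenic libraries and low in bone marrow. Pfkm stayed at 0.906 to 3.93 CPM, Aldoc at 5.08 to 11.7 CPM, Pfkfb3 at 0.355 to 2.26 CPM and Pfkfb4 at or below 1.57 CPM.

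The lower steps set B220+2NBDG- cells apart. Gapdh, which makes the NADH of glycolysis, had 626, 355, 285, 339 and 361 CPM. Pkm, pyruvate kinase, had 574, 233, 288, 195 and 198 CPM. Eno1, the main enolase, had 228, 97.7, 100, 49.2 and 71.5 CPM. In each of these genes the B220+2NBDG- library was highest, as the plot of levels by library shows. Most genes leaned the same way. Of all genes compared, 71.2% were higher in B220+2NBDG- than in B220-2NBDG- cells, and only 31.4% were higher in B220+2NBDG+ than in B220+2NBDG- cells. With the joining chain gene Jchain left out of the CPM total, these shares were 48.5% and 50.2%, so this lean depended on the scaling. Pgam1 had 122, 74.3, 87.7, 67.0 and 70.6 CPM and Tpi1, the triose phosphate isomerase, had 89.5, 58.4, 65.1, 57.9 and 60.7 CPM. Pgk1, which makes the first ATP of the pathway, broke this order with 70.5, 82.0, 80.2, 20.3 and 63.5 CPM: the B220-2NBDG+ splenic library alone was low. Pgam2, known as the muscle form of phosphoglycerate mutase, ran the other way with 37.4, 45.2, 51.4, 75.9 and 77.2 CPM, lowest in B220+2NBDG- cells and highest in the B220-2NBDG+ libraries of both tissues. Eno3 had 0.365 to 4.08 CPM and Eno2 had 1 UMI in 2 libraries and none in the others.

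**Figure D1:**
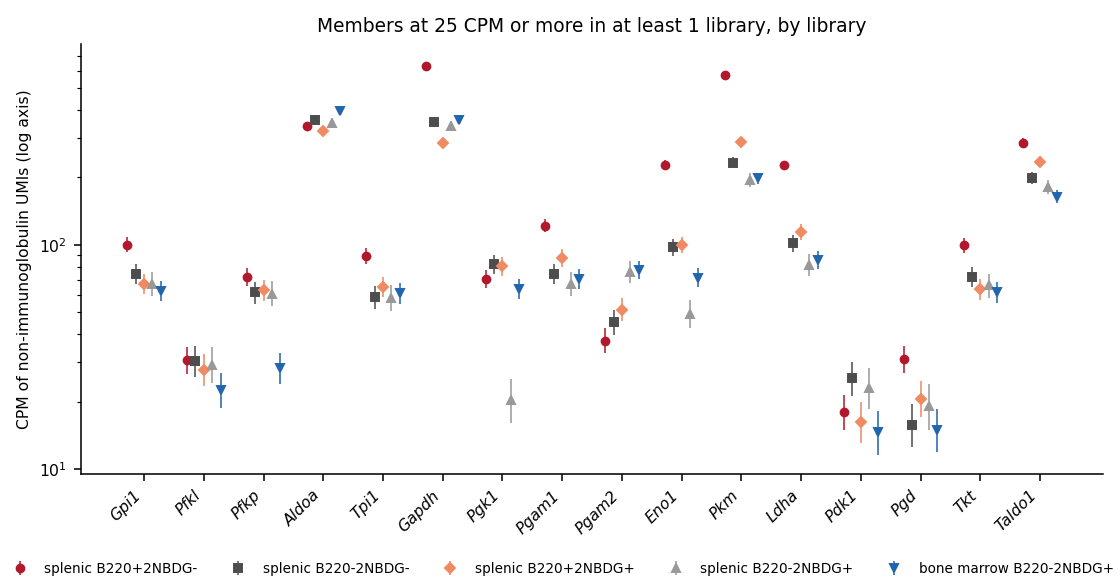
CPM of non-immunoglobulin UMIs on a log axis for the 16 genes with at least 25 CPM in 1 library or more; each point is 1 library and the bars are exact 95% Poisson counting intervals, not replicate error. Gapdh, Eno1, Pkm and Ldha are highest in the B220+2NBDG- library, Pgk1 is low in splenic B220-2NBDG+ cells at 20.3 CPM, and Pfkp is low in bone marrow at 28.2 CPM.

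Past pyruvate, Ldha, which makes lactate, had 226, 102, 114, 81.2 and 85.6 CPM, and Ldhb had no UMI in any library. Pdk1, the pyruvate dehydrogenase kinase, had 18.0, 25.4, 16.2, 23.1 and 14.6 CPM and, unlike Ldha, was not highest in B220+2NBDG- cells. The lactate carriers Slc16a1 and Slc16a3 stayed at 1.52 to 5.59 and 0.151 to 0.786 CPM. In the pentose phosphate pathway, Taldo1, transaldolase, had 286, 198, 235, 181 and 164 CPM, Tkt, transketolase, had 99.8, 72.2, 63.4, 66.0 and 61.4 CPM, and the NADPH-making dehydrogenases G6pdx and Pgd had 16.2, 5.31, 8.57, 7.11 and 6.92 CPM and 30.9, 15.7, 20.6, 19.0 and 14.9 CPM. All 4 were highest in B220+2NBDG- cells, the library in which 71.2% of all genes were also above their level in B220-2NBDG- cells (48.5% with Jchain left out of the total). Hif1a, the oxygen-regulated subunit of HIF1, varied least of the factors, at 8.34 to 11.9 CPM, and Myc had 12.2, 9.24, 8.38, 7.11 and 4.62 CPM. The 33 genes summed to 3053, 1951, 1973, 1748 and 1817 CPM, and without cycling cells to 2351, 1886, 1930, 1749 and 1817 CPM. The lower steps carried most of the difference, with 1749 CPM in B220+2NBDG- cells and 805 to 958 CPM elsewhere, against 584 and 524 to 554 CPM for the upper steps.

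Uptake of 2NBDG was then compared within B220+ cells. Of the 15 genes with enough UMIs, 13 were lower in the cells that had taken up the glucose analog, in a comparison where 31.4% of all genes were higher and most were lower. Eno1 was 2.28-fold lower in 2NBDG+ cells (95% counting interval 2.06 to 2.51) and Gapdh 2.2-fold lower (2.07 to 2.33). These were the 2 of 15 genes at 25 CPM and 50 UMIs in the higher library that differed at least 2-fold, both lower, where 4.59% of all genes were 2-fold lower and 1.15% higher by the same rule. Pkm (1.99-fold), Ldha (1.98-fold), Tkt (1.57-fold) and Pgd (1.5-fold) joined them at 1.5-fold, where the background was 14.4%. None was 1.5-fold higher, where 3.53% of all genes were. The median log2 ratio was -0.48 over the 15 genes and -0.17 over all 3990 genes compared.

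Leaving out cycling cells removed every 2-fold difference. Gapdh was then 1.495-fold lower (1.40 to 1.60), Pkm 1.45-fold (1.35 to 1.55), Eno1 1.40-fold (1.2 to 1.58) and Ldha 1.32-fold (1.18 to 1.47). Of 15 genes, 0 were 2-fold lower (background 1.71%) or 2-fold higher (background 0.866%). None was 1.5-fold lower either, where 200 of all 3810 genes were. The median was -0.22, against -0.10 over all genes. Pgk1 turned from 1.14-fold higher (0.997 to 1.30) to 1.54-fold higher in 2NBDG+ cells (1.31 to 1.82), on 408 against 235 UMIs. Slc2a1, below the level rule, was 1.43-fold lower (0.965 to 2.12) without cycling cells. Among non-cycling cells of 1 isotype, Gapdh was lower in 2NBDG+ cells 1.40-fold in IgM, 1.63-fold in IgG and 1.99-fold in IgA cells, and Pkm 1.53-fold, 1.54-fold and 1.61-fold. The median log2 ratio over all genes was -0.11 in IgM, -0.03 in IgG and -0.37 in IgA cells. All genes thus leaned lower in the IgA comparison, which held 97 against 69 cells.

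Within B220- splenic cells the sort by 2NBDG gave another picture. With 80 UMIs against 417, Pgk1 was lower 4.04-fold (3.17 to 5.20) in the 2NBDG+ library and was the only 1 of 15 genes that was 2-fold lower, where the background was 2.12%, and none was 2-fold higher (0.898%). At 1.5-fold, Eno1 was also lower (1.98-fold, 1.68 to 2.35; background 5.22%) and Pgam2 was higher (1.68-fold, 1.41 to 2.00; background 1.99%). Gapdh (1.05-fold lower, 0.976 to 1.13), Tpi1 (1.01-fold lower, 0.846 to 1.20) and Aldoa (1.04-fold lower, 0.965 to 1.11) differed by no more than counting error. Ldha (81.2 against 102 CPM) and Pkm (195 against 233 CPM) were lower in 2NBDG+ cells, with counting intervals of the levels that did not overlap. The median was -0.13 over the 15 genes and -0.09 over all 3675. Among non-cycling cells of 1 isotype, it was -0.03 in IgM cells (all genes -0.01) and 0.01 in IgG cells (-0.04). In IgA cells it was -0.77 over 9 genes and -0.36 over all genes. Gapdh, Pgk1, Eno1, Pkm and Ldha were 1.5-fold lower in those IgA cells, where 514 of all 1556 genes were. Only 16 and 1 cycling cells stood on the 2 sides, and without them Pgk1 was 3.63-fold lower (2.84 to 4.68), Eno1 1.78-fold lower (1.5 to 2.12) and Pgam2 1.79-fold higher (1.49 to 2.14).

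B220+ cells were next set against B220- cells within each 2NBDG gate. These comparisons use the same 4 libraries again, so their values restate the levels above from the other side. Among 2NBDG- cells, Pkm was 2.46-fold higher in B220+ cells (2.31 to 2.63), Eno1 2.34-fold (2.11 to 2.59) and Ldha 2.22-fold (2.01 to 2.46), 3 of 16 genes where 5.94% of all genes were 2-fold higher. None was 2-fold lower (3.18%). Pgd (1.97-fold), Gapdh (1.76-fold), Pgam1 (1.64-fold) and Tpi1 (1.53-fold) brought the genes at 1.5-fold to 7 of 16, where 21.0% of all genes were 1.5-fold higher. None was 1.5-fold lower (6.34%). Without cycling cells, Tpi1 was 1.01-fold lower (0.854 to 1.20) and Gapdh 1.19-fold higher (1.12 to 1.27), with Pkm 1.82-fold (1.68 to 1.96), Eno1 1.54-fold (1.37 to 1.75) and Ldha 1.53-fold higher (1.36 to 1.73). Pgd, at 2.03-fold higher (1.52 to 2.73), was then the only 1 of the 16 genes past 2-fold, where 3.0% of all genes were 2-fold higher and 2.61% lower. Pgk1 was 1.49-fold lower (1.26 to 1.76) in B220+ cells in that set. The medians were 0.50 over the 16 genes and 0.24 over all genes with cycling cells, and 0.26 and 0.17 without.

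Among 2NBDG+ cells, Pgk1 was 3.95-fold higher in B220+ cells (3.11 to 5.08) and Eno1 2.04-fold higher (1.73 to 2.41), 2 of 14 genes with a background of 2.45%, and none was 2-fold lower (1.48%). Pkm was 1.48-fold higher (1.36 to 1.61), Ldha 1.41-fold (1.23 to 1.62) and Taldo1 1.30-fold (1.18 to 1.43), while Pgam2 was 1.48-fold lower (1.3 to 1.74) and Gapdh 1.19-fold lower (1.10 to 1.28). The median was 0.11 over the 14 genes and 0.14 over all genes.

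Bone marrow B220-2NBDG+ cells differed from the same gate of the spleen in few of these genes. Pgk1 was 3.13-fold higher in bone marrow (2.45 to 4.04; 1 of 14 genes, background 1.18%) and Pfkp was 2.15-fold lower (1.75 to 2.64; 1 of 14, background 1.43%). Eno1 was 1.45-fold higher (1.22 to 1.73). Gapdh, Pkm, Ldha, Pgam1, Pgam2 and Tpi1 were 1.02-fold to 1.06-fold higher, with intervals that held 1. The median log2 ratio was 0.05 over the 14 genes and -0.16 over all 3486, of which 25.5% were higher in bone marrow. IgA cells were 553 of 936 in bone marrow and 214 of 892 in the spleen gate, and IgM cells 292 and 556. Among non-cycling IgM cells alone, Pfkp was 1.66-fold lower (1.27 to 2.19) and Pgk1 3.24-fold higher in bone marrow (2.34 to 4.54), and Pgam2 was 1.58-fold higher (1.32 to 1.90).

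**Figure D2:**
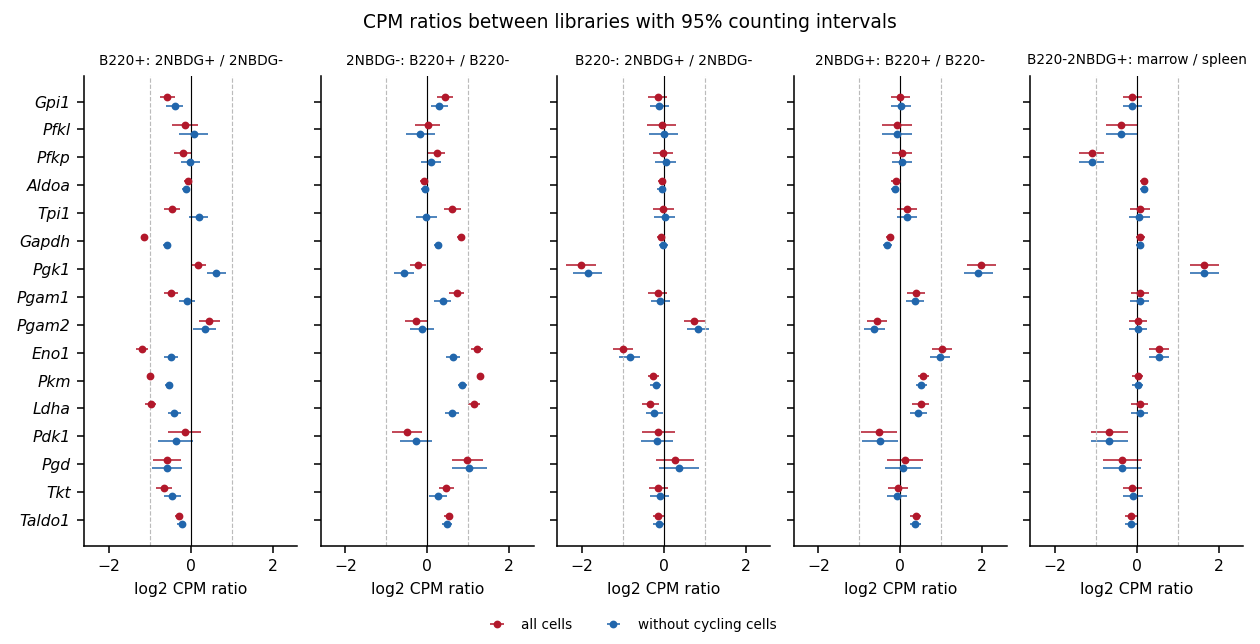
Log2 CPM ratios for the 16 genes in the 5 library comparisons, first-named over second-named group, with all cells in red and without cycling cells in blue; bars are 95% counting intervals and dashed lines mark 2-fold. The red and blue points part in the 2 panels that hold the B220+2NBDG- library and nearly coincide in the others, where Pgk1 stands far from 0.

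The low Pgk1 of splenic B220-2NBDG+ cells was present in each isotype. Without cycling cells Pgk1 had 21.9 CPM in its IgM cells, 22.5 CPM in its IgG cells and 14.2 CPM in its IgA cells. The 12 isotype groups of the other libraries had 41.6 to 173 CPM. The isotype groups of the low library share its sort and preparation, with 80 Pgk1 UMIs in all, and are not replicates. In the last 500 bases of the Pgk1 transcript, where 3' reads fall, no window of 98 bases and 7.32% of windows of 50 bases also occur in other annotated genes, the related gene Pgk1-rs7 among them. Pgk1-rs7 had 21, 58, 50, 7 and 35 UMIs over the libraries and was low in the same library, and with its UMIs added Pgk1 was 4.23-fold lower there than in B220-2NBDG- cells. Eno1 has a near-identical copy: 49.1% of its 98-base windows also occur in Eno1b, which had 48, 39, 52, 2 and 33 UMIs, again fewest in that library. Gapdh shares 77.4% of its 98-base windows with 62 other annotated genes, so its counts are uncertain where reads could be dropped or split. Why 1 library was low in Pgk1 was not tested.

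Cycling cells carried more RNA of the lower steps. In cells with 3 or more cycling UMIs against the rest of the same library, Eno1 had 463 against 135 CPM in B220+2NBDG- cells, 453 against 87.4 in B220-2NBDG- cells and 249 against 96.3 in B220+2NBDG+ cells. Gapdh had 1176 against 408, 815 against 342 and 768 against 273 CPM. Ldha had 428 against 146, 327 against 95.3 and 256 against 111 CPM. In each gene the cycling cells were higher in 3 of 3 libraries. Pgk1 had 123 against 49.6, 362 against 73.8 and 228 against 76.3 CPM, and Pkm had 1002 against 403, 606 against 222 and 655 against 278 CPM. Summed over the 33 genes the values were 4818 against 2351, 4207 against 1886 and 3615 against 1930 CPM.

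The difference was tested with UMIs summed per library and class in edgeR's quasi-likelihood test, blocked on library, with Benjamini-Hochberg adjustment over 8808 genes. Only 3 libraries had 10 cycling cells, and the test shares its estimate of spread across all genes tested. The small p-values rest largely on that shared estimate and do not measure how far 1 gene varied between the 3 libraries. Of the 24 genes tested, 9 rose, where 10.3% of all genes did, and 3 fell, where 9.47% of all genes did. Eno1 rose by 1.59 on the log2 scale (SE 0.17, adjusted p = 2.863e-13 in edgeR), Pgk1 by 1.42 (SE 0.19, 1.448e-09), Ldha by 1.26 (SE 0.17, 1.804e-09), Gapdh by 1.16 (SE 0.14, 1.191e-10) and Pkm by 1.06 (SE 0.15, 4.75e-09). Tpi1 (0.93, SE 0.22), Pgam1 (0.84, SE 0.19), Tkt (0.62, SE 0.20) and Myc (1.49, SE 0.44) rose as well, with edgeR adjusted p from 0.000448 to 0.01989. The rise of Myc rested on B220+2NBDG- cells, where leaving out cycling cells took it from 81 to 28 UMIs. In B220-2NBDG- cells it went from 47 to 46 UMIs and in B220+2NBDG+ cells from 46 to 43.

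Not every step followed. Aldoa, next to Tpi1 and Gapdh in the pathway, had 321 against 348, 327 against 362 and 377 against 321 CPM, a log2 difference of -0.29 (SE 0.16, edgeR adjusted p = 0.199). Slc2a1 (-0.01, SE 0.48), Taldo1 (0.06, SE 0.16), Hif1a (0.06, SE 0.49), Gpi1 (0.24, SE 0.22) and Pgd (0.34, SE 0.30) did not pass either, and Pfkp (0.57, SE 0.22) missed the threshold at an edgeR adjusted p of 0.05296. Pdk1 fell by 1.42 on the log2 scale (SE 0.40, edgeR adjusted p = 0.00505), with 9.55 against 21.3, 6.97 against 25.9 and 7.12 against 16.5 CPM, on 18, 1 and 1 UMIs in the cycling cells. Hk1 and Aldoc also fell, but 2 of their 3 cycling sums held no UMI, so the sizes of these changes depend on the prior count of the fit. The median log2 difference was 0.58 over the 24 genes and -0.07 over all genes. Jchain, the joining chain that plasma cells add to secreted antibody, fell by 2.06 on the same scale, so the total that the values are relative to also changed with cycling.

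Leaving out the B220+2NBDG- library, which held most cycling cells, left 6 of 23 genes that rose and none that fell. Of all genes, 4.02% rose and 4.56% fell in that fit. Eno1, Pgk1, Ldha, Gapdh and Pkm kept their calls in all 9 settings tried, with an adjusted p of at most 0.01378. The other gene that rose without that library was Pgam2 (1.32, edgeR adjusted p = 0.0013), which did not pass with all libraries. Tpi1, Pgam1, Tkt, Myc, Pdk1, Hk1 and Aldoc did not pass without it, and Tkt and Hk1 did not pass without B220+2NBDG+ cells either. With DESeq2, Tpi1, Tkt, Myc, Pdk1, Hk1 and Aldoc did not pass, and 6 genes rose and 0 fell, where 5.92% and 4.14% of all genes did. Without the 5% of cells with most UMIs, Tkt (edgeR adjusted p = 0.3809) and Hk1 did not pass. The promoter core ACGTG or GCGTG was in 6 of the 8 windows found among the 9 genes that rose, missing in Pkm and Tpi1, in 2 of 3 among those that fell, and in 9 of 12 among those that did not pass.

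**Figure D3:**
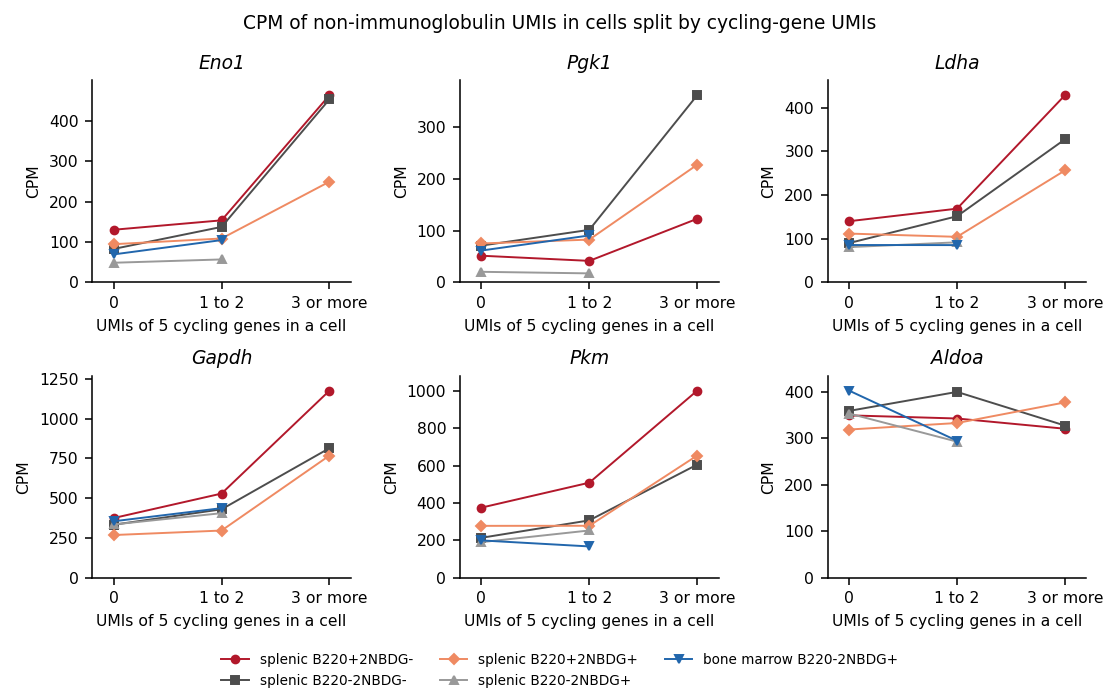
CPM of 6 genes in cells with 0, 1 to 2, and 3 or more UMIs of the 5 cycling genes, 1 line per library; groups of fewer than 10 cells are not drawn. Eno1, Pgk1, Ldha, Gapdh and Pkm are highest in the last class in all 3 libraries that have it, and Aldoa stays between 293 and 402 CPM throughout.

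Isotypes within a library share the sort, the animals and the preparation, so they were tested in the same way, with the 5 libraries as blocks and the isotypes IgM, IgG and IgA as groups (15 sums, 7934 genes, 23 of the 33 tested). An isotype was assigned where a cell had 10 heavy-chain constant UMIs and 70% from 1 gene, with the IgG subclass genes counted apart. The fits used all cells, and the levels printed here leave cycling cells out. The largest difference was in Pgam2. Without cycling cells, IgM cells had 36.1, 43.3, 39.1, 89.4 and 142 CPM, IgG cells had 50.4, 105, 59.4, 118 and 111 CPM, and IgA cells had 0, 0, 24.6, 19.2 and 29.7 CPM. IgA cells were lowest in 5 of 5 libraries.

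Pgam2 was lower in IgA than in IgM cells by a log2 difference of -1.97 (SE 0.29, edgeR adjusted p = 4.712e-05) and than in IgG cells by -2.36 (SE 0.31, edgeR adjusted p = 1.637e-05). Without cycling cells these differences were -1.92 and -2.29. Between IgG and IgM cells it did not pass (0.40, SE 0.22, edgeR adjusted p = 0.3643). The 2 IgA groups without a UMI held 69 and 130 cells, so that floors of 3 UMIs correspond to 9.49 and 5.52 CPM. Pgam2 RNA was also unevenly spread over cells. In the non-cycling bone marrow cells 180 of 936 held a Pgam2 UMI, with 2.42 UMIs on average and up to 14 in a cell, while 317 held a UMI of Pgam1, the form found in most tissues, with 1.26 on average and at most 5. In the 4 splenic libraries the averages were 2.02 to 2.44 for Pgam2 and 1.19 to 1.32 for Pgam1. No window of 50 bases in the last 500 of Pgam2 occurs in another annotated gene.

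Pfkp, the platelet-type phosphofructokinase, was ordered by isotype as well. It had 78.8, 64.3, 79.1, 72.8 and 43.8 CPM in IgM cells, 38.8, 43.8, 52.5, 49.0 and 13.4 CPM in IgG cells, and 38.0, 23.9, 30.7, 34.4 and 20.4 CPM in IgA cells without cycling cells. IgM cells were highest in 5 of 5 libraries. Pfkp fell by 0.64 on the log2 scale from IgM to IgG (SE 0.15, edgeR adjusted p = 0.008733) and by 0.95 from IgM to IgA (SE 0.16, edgeR adjusted p = 0.000206). A gene on the other strand, Pitrm1, overlaps Pfkp. IgA against IgG cells did not pass (-0.31, SE 0.19, edgeR adjusted p = 0.3839).

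Pkm was lowest in IgM cells of 4 of 5 libraries, with 358, 184, 234, 181 and 178 CPM in IgM cells, 468, 405, 305, 233 and 173 CPM in IgG cells and 443, 399, 275, 202 and 216 CPM in IgA cells. It rose by 0.45 from IgM to IgG (SE 0.12, edgeR adjusted p = 0.02823) and by 0.50 from IgM to IgA (SE 0.12, edgeR adjusted p = 0.006945). In all, IgG against IgM cells gave 1 gene higher (Pkm) and 2 lower (Pfkp and Aldoa), with 2.51% and 3.67% of all genes higher and lower. IgA against IgM cells gave 4 higher (Pkm, Eno1, Tkt and G6pdx) and 2 lower (Pgam2 and Pfkp), against 6.19% and 6.88%. IgA against IgG cells gave 1 higher (Tkt) and 1 lower (Pgam2), against 4.66% and 4.93%.

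The smaller of these differences were marginal. Eno1 (0.43, SE 0.13, adjusted p = 0.02503), Tkt (0.43, SE 0.13, 0.02656) and G6pdx (0.88, SE 0.29, 0.04532) in IgA against IgM cells, Aldoa in IgG against IgM cells (-0.32, SE 0.09, 0.03037) and Tkt in IgA against IgG cells (0.45, SE 0.14, 0.04954), all by edgeR, each lost the call when certain single libraries were left out. The libraries were splenic B220+2NBDG- or B220-2NBDG+ for Tkt against IgM, each of the 3 splenic libraries B220+2NBDG-, B220-2NBDG- and B220+2NBDG+ for Eno1, those 3 and bone marrow for G6pdx, every library but B220+2NBDG- for Aldoa, and any of the 5 for Tkt against IgG. The call of Pkm in IgG against IgM cells was lost without B220-2NBDG-, B220+2NBDG+ or B220-2NBDG+ cells, and that of Pfkp without B220+2NBDG+ cells. G6pdx also lost its call without cycling cells (edgeR adjusted p = 0.05075), with DESeq2 and at 90% dominance of 1 heavy-chain gene. Of 12 settings in all, G6pdx passed in 2, Tkt against IgG in 1, Aldoa in 5, Eno1 in 6 and Tkt against IgM in 7. Without the library block the calls of Pgam2 were lost too, with an edgeR adjusted p of 0.1089 against IgM and 0.07856 against IgG, and only Pfkp in IgA against IgM cells kept its call in all 12 settings.

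**Figure D4:**
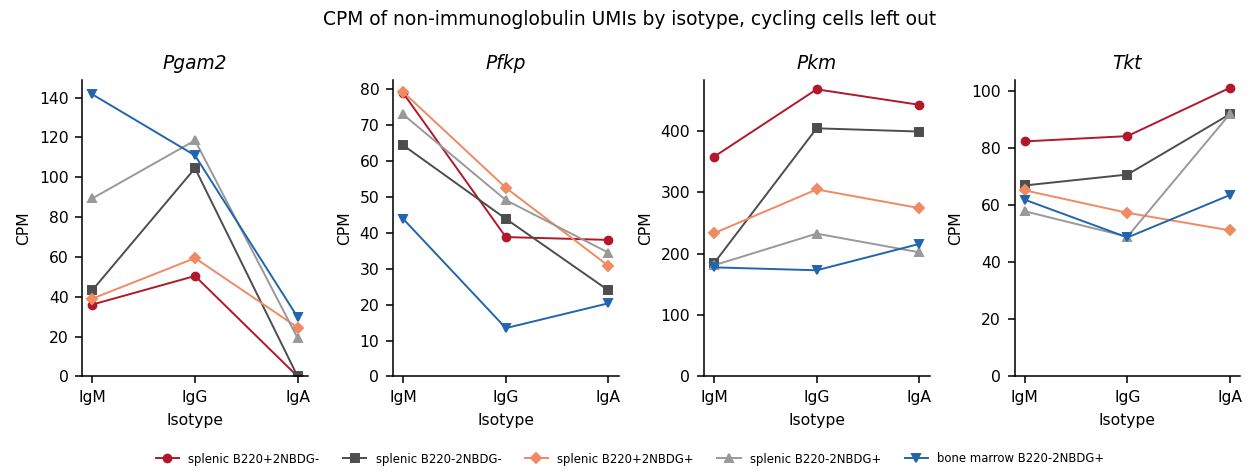
CPM of Pgam2, Pfkp, Pkm and Tkt in IgM, IgG and IgA cells without cycling cells, 1 line per library. Pgam2 drops to between 0 and 29.7 CPM in the IgA cells of every library, and Pfkp is highest in IgM cells in every library.

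Further lists of 47 other sugar genes and 20 regulators of the pathway were read in the same comparisons. Of the 10 to 13 sugar genes and 7 or 8 regulators with enough UMIs, only B220+ against B220- cells in the 2NBDG- gate had any at 2-fold: Rpia, the ribose 5-phosphate isomerase, was 2.26-fold higher (1.96 to 2.6) and Slc16a6, a carrier of the lactate transporter family, 2.69-fold higher (1.99 to 3.70). These were 2 of 13 sugar genes, where 5.94% of all genes were 2-fold higher. Without cycling cells Rpia was 2.09-fold higher (1.79 to 2.43), and Slc16a6, at 1.97-fold (1.40 to 2.80), no longer reached 25 CPM and was not counted. Rpia was low in B220-2NBDG- cells at 52.7 CPM, against 83.2 to 119 CPM elsewhere. It was 1.89-fold higher in the 2NBDG+ cells of the B220- gate (1.61 to 2.21).

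In cycling cells, Prps1, which turns ribose 5-phosphate toward nucleotides, rose by 0.90 (SE 0.23, edgeR adjusted p = 0.002067), and Slc16a6 rose by 1.04 (SE 0.29, edgeR adjusted p = 0.004464), 2 of 24 sugar genes tested, where 10.3% of all genes rose. None of the 24 fell, where 9.47% of all genes did. Of 13 regulators tested none rose and 3 fell, beside the same shares: Mxi1 by 1.43 (edgeR adjusted p = 0.003773), Mxd4 by 0.95 (edgeR adjusted p = 0.0001157), both of the MAX-binding family that opposes MYC, and Txnip, a brake on glucose uptake, by 1.02 (edgeR adjusted p = 0.0005871).

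Between isotypes, Slc2a6, a transporter of the GLUT family, was higher in IgA cells than in IgM cells (1.21, SE 0.31, edgeR adjusted p = 0.008426) and IgG cells (1.75, SE 0.38, edgeR adjusted p = 0.00354). Rpia was lower in IgA cells than in IgM (-0.59, edgeR adjusted p = 0.001006) and IgG cells (-1.0, edgeR adjusted p = 8.766e-06). Of 22 sugar genes, 3 rose and 1 fell from IgM to IgG, where 2.51% and 3.67% of all genes did. From IgM to IgA 3 rose and 3 fell, where 6.19% and 6.88% did, and from IgG to IgA 2 rose and 4 fell, where 4.66% and 4.93% did. Of 13 regulators, beside the same shares, 3 rose from IgM to IgG (Ddit4, Mxd4 and Txnip), 2 rose from IgM to IgA (Mlx and Mxd4), and from IgG to IgA Mlx and Mxi1 rose and Txnip fell.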

How the data were processed

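The tables hold UMI counts per gene and cell; per the submitters' processing notes they came from Cell Ranger 2.1 on GRCm38, and the counts were deposited with no further normalization named. Aligner, annotation and read length: not given in the sources used here. Members and lists were chosen with earlier results of these data known. Members were matched by symbol; 32739 of 33456 genes matched GENCODE M21, and its 266 immunoglobulin genes were left out of the CPM total. Cells with 3 or more T cell UMIs were removed; no doublet caller was run, and leaving out the 5% of cells with most UMIs in each library stood in for one. With 1 library a group, CPM ratios carry exact conditional binomial 95% intervals and no test; ratios were counted at 2-fold where the larger level reached 25 CPM on 50 UMIs, with counts under 3 raised to 3. Within libraries, summed counts (10 cells a cycling sum, 20 an isotype sum) were tested with edgeR 4.0.16 (TMM, filterByExpr, Benjamini-Hochberg), checked on simulated data; DESeq2 1.42.0 was an alternative. By rule, members at 25 CPM in 1 library or more are given in every library and others by range, other pathway genes only when past a threshold; Slc2a1, Hk2, G6pdx and Myc were added after their values were seen.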

Additional observations from a re-analysis of the deposited data

Results flagged for a closer look

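Pgk1 moved in opposite directions with the same sort. Without cycling cells, its log2 ratio of 2NBDG+ to 2NBDG- cells was 0.62 in B220+ cells and -1.86 in B220- cells, and its log2 ratio of B220+ to B220- cells was 1.91 in 2NBDG+ cells and -0.57 in 2NBDG- cells. Both pairs restate the levels of the same 4 libraries. Pgk1 was lowest in splenic B220-2NBDG+ cells, at 20.3 CPM without cycling cells, and next lowest in B220+2NBDG- cells, at 49.6 CPM. B220-2NBDG- and B220+2NBDG+ cells had 73.8 and 76.3 CPM. The ratios of -1.86 and 1.91 hold the lowest library, and those of 0.62 and -0.57 hold the B220+2NBDG- library instead. The difference was not tested, because each population is 1 library.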

How the results depend on the processing

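The count of genes at least 2-fold different depended on cells and scaling, and its values for 1 isotype leave cycling cells out unless stated. For 2NBDG in B220+ cells it was 2, and became 0 without cycling cells, without any cell holding a cycling UMI, in IgM or IgG cells without cycling cells, without the 5% of cells with most UMIs and as a mean over cells, 1 with Jchain left out of the total or in IgA cells, and 8 scaled to all UMIs, where 710 of all 2456 genes were 2-fold lower. For 2NBDG in B220- cells it was 1, and became 2 over all deposited cells, in IgM or IgA cells without cycling cells or with near-identical copies added, and 0 in IgG cells. For B220 in 2NBDG+ cells it was 2, and became 1 without cycling cells, without any cycling UMI, scaled to all UMIs, without Jchain, with TMM factors, in IgG cells or as a mean over cells, and 0 in IgA cells. For B220 in 2NBDG- cells it was 3, and became 1 without cycling cells, without Jchain, in IgG or IgA cells or without the 5% of cells with most UMIs, 0 without any cycling UMI or in IgM cells without cycling cells, 7 scaled to all UMIs, where 807 of all 2480 genes were 2-fold higher, and 5 at a minimum of 10 CPM and 20 UMIs. For bone marrow it was 2, and became 1 scaled to all UMIs, with TMM factors, in IgM cells with or without cycling cells or in IgA cells, and 0 in IgG cells. The Ldha ratio of B220 in 2NBDG- cells reversed to -0.22 in IgA cells without cycling cells. Scaling to all UMIs moved the median of all genes by -0.59, 0.19, -0.25, 0.53 and -0.12 on the log2 scale in these comparisons. Of the tests, IgG against IgM cells had 3 genes past the threshold, 0 with no library block and 0 to 3 with a library left out. IgA against IgM cells had 6, 2 with no factors, 1 with no library block and 3 to 7 with a library left out. IgA against IgG cells had 2, 1 with DESeq2, no factors, no filter, 90% dominance or Jchain left out, 0 with no library block and 1 to 2 with a library left out. Cycling cells had 12, 6 with DESeq2 and 6 to 13 with a library left out. The shares of all genes past the threshold moved too. In the cycling test they were 19.8%, and 10.1% with DESeq2. With and without the library block they were 6.18% and 0.832% for IgG against IgM cells. They were 13.1% and 4.89% for IgA against IgM cells, and 9.59% and 3.87% for IgA against IgG cells. The cause of these changes was not tested. The added copies and the IgG and IgA cells alone without cycling cells were chosen after seeing the data. Thinned counts and IgM cells alone were not run for the cycling test, since 1 library then held both classes. Between libraries no paired analysis was possible because each population is 1 library; the tests within libraries pair their groups through the library block. Depth limits Slc2a1, Hk1 and Hk2, which had too few UMIs for small differences to be detectable.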
